A study of Homo sapiens with 2 samples.

Results

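Caspases are proteases that cut after aspartate and are held in cells as inactive precursors. In the mitochondrial route of apoptosis, cytochrome c leaves the mitochondria and binds APAF1, which assembles into a wheel-shaped platform, the apoptosome, on which the initiator CASP9 becomes active and then cleaves executioner caspases. CASP8 is the initiator downstream of death receptors, CASP2 an initiator activated on a separate platform in genotoxic and mitotic stress, and CASP6 an executioner that cuts nuclear lamins. XIAP inhibits caspases directly, and DIABLO, also called SMAC, is released from mitochondria and takes XIAP off them. The data described here are the levels of the transcripts of these 8 genes, CASP2, CASP6, CASP8, CASP9, APAF1, CYCS, DIABLO and XIAP, on 29 of the array's 54675 probe sets. All probe sets that the platform annotation gives to these genes were taken, whatever their values. Transcript levels do not measure caspase activity, which is set by cleavage and by release of mitochondrial proteins.

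The study compared AGS cells, an established line from a human gastric adenocarcinoma, labelled as controls with AGS cells in which galectin-3 was silenced by a synthetic double-stranded small interfering RNA. There was 1 array per group, 2 in all. No genotype or agent other than the silencing, no time after transfection and no treatment of the control cells is given in the sources used here. No difference below has a replicate check, a test or a p-value, and precision is limited by having so few arrays. LGALS3, which encodes galectin-3, had a signal of 20206 in control cells and 2699.8 in silenced cells, 13.4% of the control.

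Signals are MAS5 values in arbitrary units, and every ratio is the log2 of the silenced over the control signal. A background floor was set from the signals of olfactory receptor genes, at 87.8 for control and 82.9 for silenced cells. A signal under it was raised to it, so that a ratio with 1 side under the floor is a bound. Where a gene value is given it is that of the brightest probe set by mean log2 signal, and 11641 genes were above the floor on at least 1 array by that probe set. As a yardstick, probe sets of one gene differed in their ratio with a pooled SD of 0.35 over 5288 genes. That spread is between readings of the same RNA and says nothing of repeat cultures. Names ending in _s_at mark probe sets that can match several transcripts, and those ending in _x_at mark probe sets with probes that can also match other sequences. Markers were read as a check on the cells. All 7 epithelial markers were above the floor, with summed signals of 92475 in the control and 112993 after silencing. None of the 4 leukocyte markers with a value was above it, against 2 of 6 fibroblast markers, COL1A1 at 816.3 and 1502 and THY1 at 90.2 and 119.1, and 1 of 3 endothelial markers, PECAM1 at 127.4 and 121. The part of these markers in the differences below was not tested.

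All 8 genes were measured, and 25 of the 29 probe sets were above the floor on both arrays. At the gene level, APAF1 was 2.41-fold lower on the silenced array and was the only one of the 8 past 2-fold. Of all genes measured, 3.05% were lower by 2-fold or more. None (0 of the 8) was higher by 2-fold or more, as 3.74% of all genes were. With a threshold of 1.5-fold, chosen after the values were seen, DIABLO and CASP8 were higher and APAF1 and CASP2 lower, beside 11.7% of all genes higher and 10.3% lower. CASP6, CASP9, CYCS and XIAP were within 1.2-fold of the control. The median log2 ratio of the 8 genes was 0.13, beside -0.001 over all genes measured. That median was -0.10 after equalising the poly-A controls, a scaling that put the median of all genes at -0.24.

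For the 4 genes past 1.5-fold, which had the largest differences, the sequence around the outermost start of each is shown, from 250 bases before the start to 50 after it. The sequences are from RefSeq on GRCh38.p14, each 300 bases long, 5′ to 3′ on the strand of the gene. Capitals mark matches on either strand to GGGCGG (the GC box bound by Sp1-type factors), CCAAT (the CCAAT box), TATAAA (the TATA box), TTTNNCGC (a loose form of the E2F site) and GAAANNGAA (a loose form of the element that interferon-activated factors bind).
APAF1 at chr12:98645040-98645339, plus strand: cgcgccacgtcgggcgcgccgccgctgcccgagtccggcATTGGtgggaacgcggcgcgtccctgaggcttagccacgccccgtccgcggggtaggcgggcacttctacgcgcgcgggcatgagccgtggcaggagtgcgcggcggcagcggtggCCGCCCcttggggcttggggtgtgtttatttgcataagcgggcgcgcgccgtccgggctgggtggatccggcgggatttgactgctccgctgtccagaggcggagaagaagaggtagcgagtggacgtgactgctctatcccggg
CASP2 at chr7:143288101-143288400, plus strand: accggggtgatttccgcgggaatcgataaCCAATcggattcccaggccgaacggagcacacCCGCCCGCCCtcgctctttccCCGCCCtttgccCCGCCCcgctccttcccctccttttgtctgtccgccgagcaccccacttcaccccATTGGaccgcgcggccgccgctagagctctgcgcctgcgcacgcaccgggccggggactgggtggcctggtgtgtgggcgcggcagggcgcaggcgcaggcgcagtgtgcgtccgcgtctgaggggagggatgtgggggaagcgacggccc
CASP8 at chr2:201233213-201233512, plus strand: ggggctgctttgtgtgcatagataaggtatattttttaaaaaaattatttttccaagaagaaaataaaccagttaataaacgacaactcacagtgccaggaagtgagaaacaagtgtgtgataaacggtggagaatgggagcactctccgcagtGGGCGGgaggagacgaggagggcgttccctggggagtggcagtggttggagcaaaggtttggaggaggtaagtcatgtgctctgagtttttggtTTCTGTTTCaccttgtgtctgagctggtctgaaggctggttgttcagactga
DIABLO at chr12:122227407-122227706, minus strand: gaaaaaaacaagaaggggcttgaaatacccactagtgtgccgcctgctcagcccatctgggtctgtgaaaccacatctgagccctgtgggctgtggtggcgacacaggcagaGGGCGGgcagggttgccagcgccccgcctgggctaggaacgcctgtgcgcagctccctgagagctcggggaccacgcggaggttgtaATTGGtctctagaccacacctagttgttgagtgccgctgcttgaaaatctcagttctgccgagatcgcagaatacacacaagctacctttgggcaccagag

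At the outermost start, the windows of the genes that were lower, APAF1 and CASP2, had a GC content of 71.3% each. The median of all 35116 windows was 58.7%, and DIABLO had 58.3% and CASP8 46.3%. CASP6 and CASP9, with gene values over 0, had 72.0% and 71.3%, as high as the genes that were lower. At other starts, CASP2 had 43.0% and DIABLO 67.3% to 71.7%. The APAF1 window held 1 GC box and 1 CCAAT box, and that of DIABLO likewise. CASP2 had 4 GC boxes, of which the first pair overlap, and 2 CCAAT boxes. CASP8 had 1 GC box and 1 match to GAAANNGAA. The 8 genes have up to 4 listed starts each, 17 windows in all, and shares over all windows likewise take every listed start. Of the 17 windows, 12 held a GC box and 7 a CCAAT box, beside 45.0% and 34.6% of all windows. GAAANNGAA was in 2 of the 17, at the outermost start of CASP8 and at another start of DIABLO, beside 8.11%. TATAAA was in 1, at another start of CASP8, beside 11.5%, and TTTNNCGC in 0, beside 6.89%. Which start AGS cells use was not analysed here. A match is a string of letters and not a shown binding site.

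**Figure D1:**
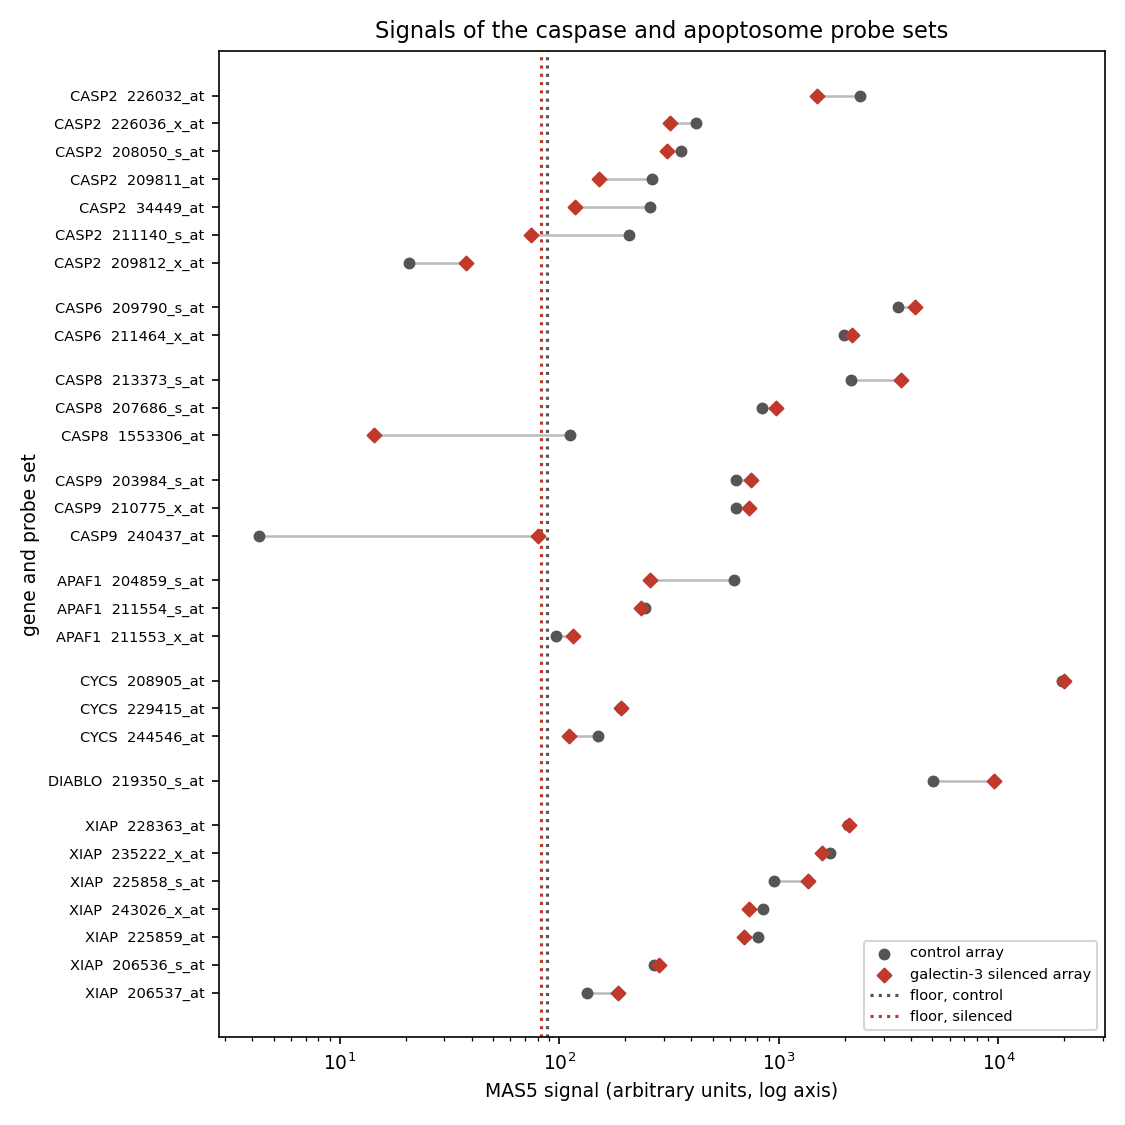
MAS5 signal (arbitrary units, log axis) of each of the 29 probe sets on the control array (grey circles) and the galectin-3 silenced array (red diamonds), joined by a line, with the floor of each array dotted. CASP2 probe sets above the floor all have the diamond to the left of the circle, and the DIABLO probe set runs from 5044.9 to 9600.3.

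Among the initiator caspases, CASP2 was lower on the silenced array on each of its probe sets that gave a ratio. Its leading probe set, 226032_at, read 2336.1 in control and 1495.8 in silenced cells, a log2 ratio of -0.64 or 64.0% of the control. Probe set 34449_at went from 258.9 to 117.9, a log2 ratio of -1.13, and 209811_at from 265.4 to 152.6, a log2 ratio of -0.80. These are the lowest ratios among the 5 CASP2 probe sets above both floors. The differences were smaller on 226036_x_at, with 419.5 and 320.7 (-0.39), and on 208050_s_at, with 360 and 310.3 (-0.21). On 211140_s_at the signal was 208.7 in the control and 74.6, under the floor, after silencing, which makes it at least 2.52-fold lower. The seventh, 209812_x_at, stayed below both floors, with 20.8 and 37.8, and has no ratio. All 6 ratios were under 0 also with each of the 5 other scalings of the arrays. Of the 372 genes with 5 or more probe sets above both floors, 14.2% had all of them lower. All were on one side of 0 in 31.2%. That group takes in genes with more such probe sets than the 5 of CASP2. The share with all lower fell with the number of probe sets, from 38.4% at 2 to 21.6% at 4. At the gene level 8.61% of all genes measured had a ratio as low or lower.

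CASP8, which death receptors activate through the adaptor FADD, was higher on both of its stronger probe sets and lower on a weak one. On 213373_s_at the signal read 2133.5 in control and 3590.7 in silenced cells, a log2 ratio of 0.75 or 1.68-fold. On 207686_s_at it was 836.8 and 972.5, a log2 ratio of 0.22, less than the pooled SD between probe sets. With the poly-A controls equalised only 1 of the 3 CASP8 probe sets, 213373_s_at, was over 0, at 0.51. The third, 1553306_at, was at 111.8 in the control, just above the floor, and at 14.4 after silencing, which makes it at least 1.35-fold lower. With a floor taken also from olfactory receptor pseudogenes, 138.4 on the control array, 1553306_at was below both floors and has no ratio. The size of the CASP8 difference depended on the probe set, and 7.24% of all genes measured had a ratio as high as that of 213373_s_at or higher.

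CASP9, the caspase of the apoptosome, differed little between the arrays. Its leading probe set 203984_s_at was at 636.6 in the control and 744.4 after silencing, a log2 ratio of 0.23. The _x_at probe set 210775_x_at gave nearly the same signals, 635.6 and 730.1, and a log2 ratio of 0.20. Both ratios were under the pooled SD between probe sets, and equalising the poly-A controls gave a gene value of -0.01. The remaining CASP9 probe set, 240437_at, was below both floors, at 4.3 and 79.8, and has no ratio.

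CASP6, the executioner among the 8, was slightly higher on both of its probe sets. Its signals were 3482.2 and 4163.7 on 209790_s_at, a log2 ratio of 0.26, and 1974.4 and 2164.6 on 211464_x_at, a log2 ratio of 0.13. Neither exceeded the pooled SD, and equalising the poly-A controls left the gene value at 0.02 and turned the other to -0.11.

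**Figure D2:**
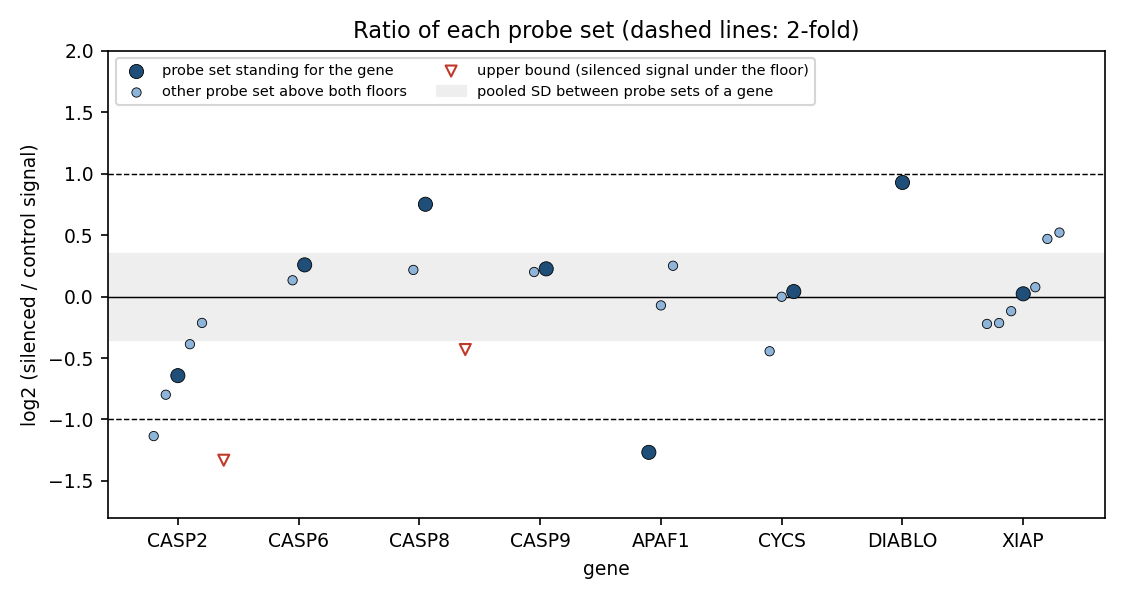
Log2 ratio of the silenced over the control signal for each probe set above both floors, by gene, with the probe set that stands for the gene in dark blue, upper bounds as open triangles and the pooled SD of 0.35 between probe sets as a grey band. CASP2 points all lie under 0, the APAF1 points run from -1.27 to 0.25, and 15 of the 25 points lie inside the band.

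APAF1, the scaffold of the apoptosome, was the member with the lowest gene value, and its probe sets disagreed. On 204859_s_at the signal read 624.4 in control and 259.4 in silenced cells, 41.5% of the control and a log2 ratio of -1.27. On 211554_s_at it was 247 and 235, a log2 ratio of -0.07, and on 211553_x_at it was 97 and 115.4, both near the floor, a log2 ratio of 0.25. The ratios spanned 1.52 on the log2 scale, and of the 1419 genes with 3 probe sets above both floors 2.26% spanned as much or more. The median of the 3 was -0.07, so that the 2-fold difference of APAF1 rested on a single probe set. By the gene value, 1.31% of all genes measured were as low or lower. Which APAF1 transcripts each probe set detects was not analysed here.

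CYCS, which encodes cytochrome c, the electron carrier that also triggers apoptosome assembly, had nearly equal signals on both arrays. They were 19444.5 and 20003.4 on 208905_at, a log2 ratio of 0.04, and 190.9 and 190.7 on 229415_at. The weakest, 244546_at, was at 150.4 and 110.5, a log2 ratio of -0.44. The RefSeq table lists 45 CYCS pseudogenes, and signal from transcripts of such copies could not be told apart here from that of the gene. The leading ratio had no settled direction, since it was -0.20 with the poly-A controls set equal and 0.22 with the hybridization controls set equal.

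DIABLO, the mitochondrial antagonist of XIAP, was the member with the highest gene value. Its single probe set, 219350_s_at, read 5044.9 in control and 9600.3 in silenced cells, a log2 ratio of 0.93 or 1.90-fold. This stopped short of 2-fold, and it passed 2-fold, at 1.11, when the hybridization controls were set equal. Of all genes measured 4.46% were as high or higher, and of the 582 genes in its signal group (1 of 20 equal groups by mean log2 signal) 2.06%. In its own such group, 6.70% of genes were as high as CASP8 or higher. As low or lower were 1.72% for APAF1 and 9.11% for CASP2. With 1 probe set for DIABLO there is no second reading of its difference on the array.

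XIAP, the inhibitor that DIABLO binds, showed no common direction over its 7 probe sets, all above both floors. The leading probe set 228363_at was at 2062.6 in the control and 2095 after silencing, a log2 ratio of 0.02, or -0.22 with the poly-A controls equalised. The highest ratios were on 225858_s_at, with 951.8 and 1365.6 (0.52), and on 206537_at, with 133.8 and 185.2 (0.47). The lowest were on 243026_x_at, with 849.9 and 728.4 (-0.22), and on 225859_at, with 804.9 and 693.4 (-0.22). In between, 206536_s_at was at 269.2 and 283.8 and 235222_x_at at 1716.5 and 1580.9. In all, 4 of the 7 ratios were over 0 and 3 under it, and their span of 0.74 was below the median span of 0.87 in the 21 genes with as many probe sets above both floors. The annotation gives 225858_s_at and 225859_at the same source sequence, yet their ratios had opposite signs. DIABLO was 1.90-fold higher and XIAP, on its leading probe set, 1.02-fold higher, a contrast for which these arrays allow no test.

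Counted by probe set, 3 of the 27 that were above the floor on at least 1 array were at least 2-fold lower, beside 3.13% of all such probe sets. They were 204859_s_at of APAF1 and 34449_at and 211140_s_at of CASP2, the last as a bound. At least 2-fold higher were 0 of the 27, beside 3.55%. Of the 25 above both floors, 13 had a ratio over 0 and 12 under it, with a median of 0.02, beside -0.02 over all 23235 such probe sets.

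**Figure D3:**
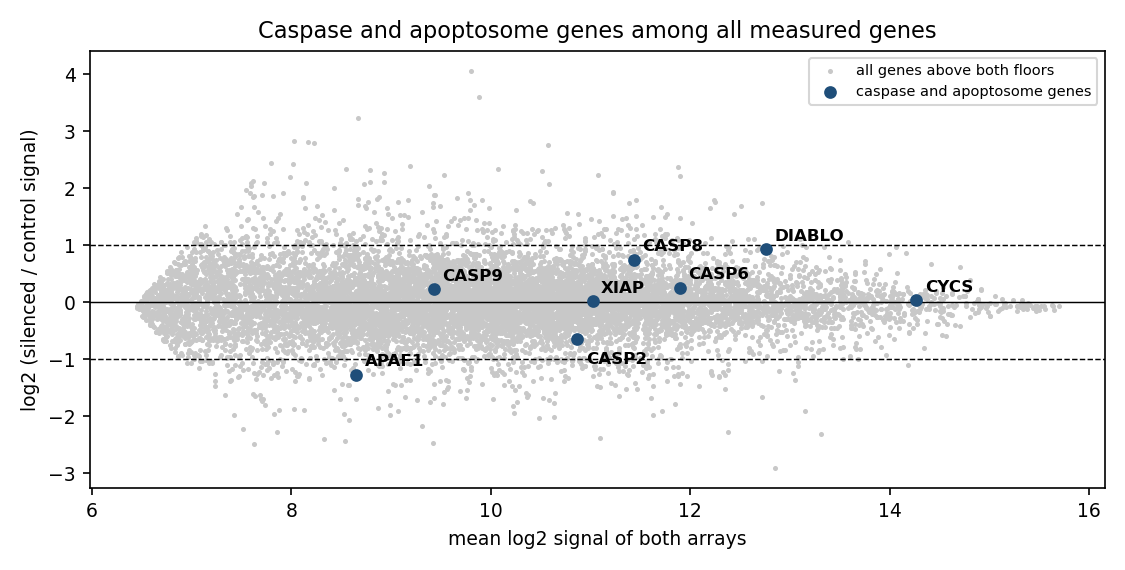
Log2 ratio of the silenced over the control signal against the mean log2 signal of both arrays for all genes above both floors (grey) with the 8 caspase and apoptosome genes in blue and dashed lines at 2-fold. APAF1 at -1.27 is the only one of the 8 outside the dashed lines, and DIABLO at 0.93 lies just inside them.

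The rest of the pathway was described with 5 lists. Setting the poly-A controls equal lowered every ratio by 0.24 and setting the hybridization controls equal raised it by 0.18, while the 3 other scalings moved list medians by little. With the former the IAP list median turned to -0.10 and the substrate median to -0.12, and the other list medians kept their sign under all 5 scalings. Of 6 other caspases with a named probe set 2 were measured by their gene value, and both gene values were higher by less than 2-fold. CASP10, the relative of CASP8 in death receptor signalling, was at 200.6 and 294.8, a log2 ratio of 0.56. Its probe sets disagreed in direction, with 0.15 on 210708_x_at and -0.09 on 210955_at, which was close to the floor. On 211888_x_at the signal was 65.6 in the control, under the floor, and 169.6 after silencing, at least 1.93-fold higher. The inflammatory caspase CASP4 was at 406.2 and 506.6, a log2 ratio of 0.32. CASP1, an inflammatory caspase, has no gene value because the probe set that stands for it was below both floors. It had signal on a pair of _x_at probe sets, which a gene value leaves out. They read 116.9 and 113.7 on 211366_x_at, a log2 ratio of -0.04, and 102.4 and 72.5 on 209970_x_at, which is at least 1.23-fold lower. CASP5, CASP12 and CASP14 had no probe set above either floor.

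Of 10 adaptors of initiator caspases 9 had a probe set named for that gene alone, and 7 were measured. Of these 7, 6 had a ratio over 0, as 49.9% of all genes measured did, and the median was 0.28. By gene value 0 were past 2-fold, beside 3.74% of all genes higher and 3.05% lower. CFLAR was past 2-fold higher on 209939_x_at and 210563_x_at, which its gene value leaves out. NOD1, a sensor of bacterial peptides, was at 161.3 and 276.3 (0.78), CASP8AP2, which binds CASP8, at 1042.2 and 1606 (0.62), and the death receptor adaptor TRADD at 515.7 and 702.7 (0.45). FADD itself was at 1991.7 and 1958.8, a log2 ratio of -0.02. PIDD1 and CRADD, which build the platform for CASP2, were at 0.15 and 0.25 while CASP2 itself was lower.

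Of 10 genes of the inhibitor of apoptosis (IAP) family and its antagonists 8 had a probe set named for that gene alone. Of these 7 were measured, with a median of 0.14, 4 ratios over 0 and 3 under it. XAF1 was past 2-fold on the higher side and BIRC5 on the lower, 1 of the 7 each way. The shares over all genes were 3.74% higher and 3.05% lower. XAF1, an interferon-induced protein that binds XIAP, was at 95.4 in the control, just above the floor, and 520 after silencing, a log2 ratio of 2.45. BIRC5, or survivin, was at 4030.7 and 1772.9, a log2 ratio of -1.18, and the large family member BIRC6 was at 2663.1 and 1522.6, a log2 ratio of -0.81. The IAP family had no common direction, since BIRC2 was higher, at 3841.5 and 6337.4, a log2 ratio of 0.72. NAIP was at 0.14 and BIRC7 at -0.33. HTRA2, which like DIABLO is a mitochondrial protein that binds XIAP, was higher on both of its probe sets, with log2 ratios of 0.53 and 0.64. Of the 2924 genes with 2 probe sets above both floors, 72.0% had both on one side of 0.

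Of 9 regulators of the apoptosome 7 had a probe set named for that gene alone, and all 7 were measured. The others had no such probe set and were not read. Of the 7, 5 had a ratio under 0, as 50.1% of all genes measured did, and the median was -0.21. By gene value 0 were past 2-fold, beside 3.74% of all genes higher and 3.05% lower. CSE1L, a nuclear transport factor reported to aid APAF1, was at 18573 and 9367.9, a log2 ratio of -0.99. AVEN, which binds APAF1 and holds it back, was at 987.3 and 669.7 (-0.56), and APIP, also an APAF1-binding protein, at 2065.6 and 2617.5 (0.34).

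All 15 caspase substrates were measured, with a median of 0.12. Of these 10 had a ratio over 0 and 5 under it, beside 49.9% and 50.1% of all genes measured. GSN and LMNB1 were past 2-fold in opposite directions, 1 of the 15 each way. The shares over all genes were 3.74% higher and 3.05% lower. The actin-severing protein gelsolin, GSN, was at 773.5 and 1850.7, a log2 ratio of 1.26, and LMNB1, a lamin of the nuclear envelope, at 3780.1 and 1638.5, a log2 ratio of -1.21. GSDMD, a pore-forming protein, was at 142.3 and 250.5, a log2 ratio of 0.82.

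**Figure D4:**
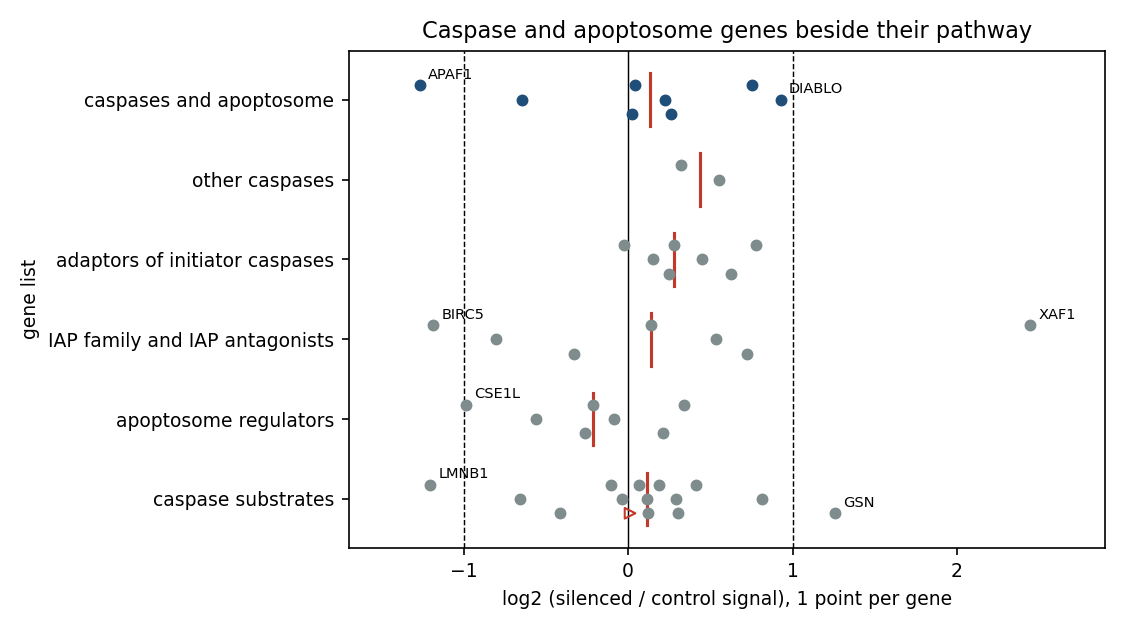
Log2 ratio of the silenced over the control signal, with 1 point per measured gene, for the 8 caspase and apoptosome genes (blue) and 5 pathway lists (grey), with list medians as red bars, a bound as an open triangle and dashed lines at 2-fold. XAF1 at 2.45 and GSN at 1.26 lie beyond 2-fold on the higher side, and APAF1, BIRC5 and LMNB1 on the lower side.

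**Figure D5:**
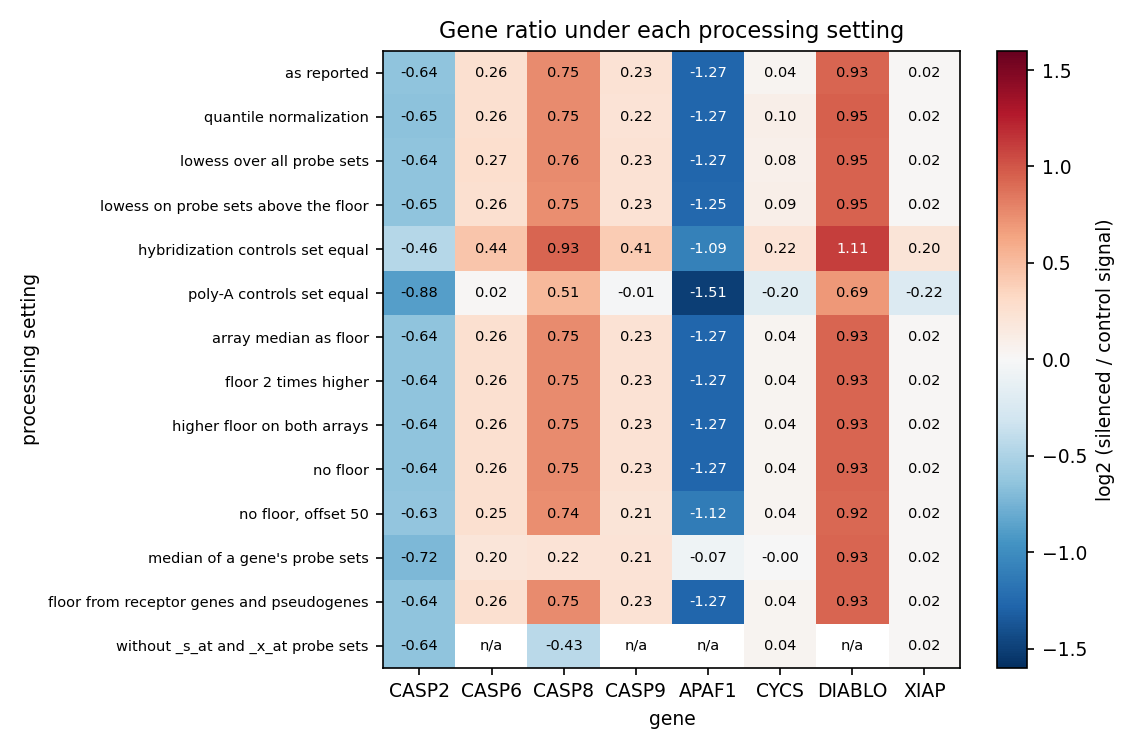
Gene-level log2 ratio of each of the 8 genes under the reported processing and 13 alternatives, coloured by ratio, with n/a where no probe set was left. CASP2 is under 0 and DIABLO over 0 in each row with a value, and APAF1 moves from -1.27 to -0.07 with the median of its probe sets.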

How the data were processed

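One-colour Affymetrix arrays were hybridised with biotin-labelled cRNA from Trizol-extracted RNA, per the labels' protocols. The authors deposited linear intensity values, and MAS5 is named in the submitters' processing notes, without a version, scaling target or filter. Both arrays had a 2% trimmed mean of 500.07, so the deposited scaling was kept. Scaling to a common mean hides a change in total RNA per cell, and fewer cells of a kind and less RNA per cell cannot be told apart.

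Probe sets were named from the platform annotation where it gives 1 gene symbol (41097 probe sets), and 41043 of these were matched by gene identifier to RefSeq GRCh38.p14. Each floor is the 95th percentile over 107 olfactory receptor probe sets. Gene values leave out _x_at probe sets where the gene has another. Called means at least 2-fold, and no test exists with 1 array per group. Named are all probe sets of the 8 genes, LGALS3, and in each list the genes past 2-fold, with others by size up to 3. FADD, PIDD1, CRADD, HTRA2, BIRC2, BIRC7, NAIP, CASP1, CFLAR, DFFA and DFFB were added after their values were seen. The members and lists were chosen with earlier results of these data known. The steps were tested on simulated data, with changes planted in bright genes that were larger than the gene-level differences of the 8 genes. The simulated noise was less than the scatter between probe sets. The recovery of smaller differences or of signals near the floor was not tested. Python 3.11.15, pandas 2.3.3 and statsmodels 0.14.6 were used. The alternatives changed the scaling, the floor or the probe set of a gene.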

Additional observations from a re-analysis of the deposited data

How the results depend on the processing

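CASP2, CASP6 and DIABLO kept their direction under each alternative that gave a value, with log2 ratios from -0.88 to -0.46 for CASP2, 0.02 to 0.44 for CASP6 and 0.69 to 1.11 for DIABLO. With the hybridization controls set equal, which moved the median of all genes to 0.18, 1 gene and 1 probe set were at least 2-fold higher, both DIABLO. Taking the median over each gene's probe sets, 0 genes were at least 2-fold lower, since APAF1 was at -0.07 there, while it lay between -1.51 and -1.09 under the other 11 alternatives that gave it a value. Without _s_at and _x_at probe sets 4 of the 8 genes had a value, 0 genes and 1 probe set were at least 2-fold lower, and CASP8, then read from 1553306_at, was at -0.43. CASP8 was at 0.22 by the median of its 3. With a floor 2 times higher 1 probe set was at least 2-fold lower, and with the floor that also uses receptor pseudogenes, an alternative added after the data were seen, 2 were. The median of the 8 genes was -0.20 without _s_at and _x_at probe sets. CASP9, CYCS and XIAP had no settled direction. No paired analysis was possible because each group has 1 array. Signals near the floor limit 1553306_at, 211553_x_at, 244546_at and XAF1.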

Other observations

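CFLAR, which encodes the FLIP inhibitor of CASP8, had the gene value of 211317_s_at, with signals of 526.6 and 639.2 and a log2 ratio of 0.28. Its brighter _x_at probe sets, which the gene value leaves out, gave larger ratios, and they are named here after their values were seen. On 210563_x_at the signal read 2127.9 in control and 5312.4 in silenced cells, a log2 ratio of 1.32, and on 209939_x_at it was 3093.8 and 6455.8, a log2 ratio of 1.06. Of the 11 CFLAR probe sets above both floors 10 were higher, with ratios from -0.25 to 1.32. How often other genes with as many probe sets lean this far to one side was not worked out. Probes of _x_at probe sets can also match other sequences.

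CSE1L was lower on all 4 of its probe sets above both floors, with log2 ratios from -1.32 to -0.75. Of the 573 genes with 4 such probe sets 21.6% had all of them lower. DFFA, the inhibitor of the caspase-activated nuclease, was lower on all 3, with ratios from -0.72 to -0.66, and 27.8% of the 1419 genes with 3 had all of them lower. The nuclease itself, DFFB, was at 284.5 and 309.1, a log2 ratio of 0.12.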
